A study of Mus musculus with 4 samples.

Results

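The genes of the proteasome and immunoproteasome were followed in mouse bone marrow cells grown with either of a pair of colony-stimulating factors. Members were all genes with a single symbol in the platform annotation that began Psma, Psmb, Psmc, Psmd, Psme, Psmf or Psmg followed by a digit, which gave 50 of 19938 genes. Where a gene had several probe sets, the brightest on average was used. All 50 passed the filter on dim genes, as did 14995 genes in all. The name rule also took in Psmc3ip and Psme3ip1, which are named for an interaction partner and are not proteasome subunits, so 48 members were proteasome genes. Psme2b, a close copy of Psme2, has no probe set of its own in the annotation used here and was not analysed here.

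Marrow of C57BL/6J mice was cultured for 7 days. The group called M1 was grown with granulocyte-macrophage colony-stimulating factor (GM-CSF) and sorted as CD45+, MHCII+, CD8a- and F4/80+. The group called M2 was grown with macrophage colony-stimulating factor (M-CSF), given as 20% supernatant of the fibroblast line L929, and sorted as CD45+, F4/80+ and CD11b+. Both groups grew in RPMI with serum, and no other agent or allele is named. There were 2 arrays of each group (4 arrays together), and the comparison asks how M1 and M2 cells differ. Growth factor, supernatant and gate changed together and cannot be told apart, and the M1 label rests on GM-CSF culture, with no interferon or lipopolysaccharide named. Nothing in the labels says that replicates came from different cultures or mice. Every p-value therefore reflects the spread of these samples alone, which for the M-CSF pair may be technical; the GM-CSF arrays were unlike in the X-linked Xist and the Y-linked Eif2s3y and so did not both measure 1 RNA. In these bulk RNA samples, fewer cells expressing a gene and less RNA per cell cannot be told apart.

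The 26S proteasome degrades proteins tagged with ubiquitin. Its barrel-shaped core particle has outer rings of alpha subunits and inner rings of beta subunits, of which Psmb5, Psmb6 and Psmb7 carry the proteolytic sites. The regulatory particle, built of Psmc ATPases and Psmd subunits, caps the barrel, binds ubiquitin chains, unfolds the substrate and feeds it in. Under interferon-gamma, cells replace the catalytic subunits by Psmb8, Psmb9 and Psmb10 to form the immunoproteasome, and the PA28 activator (Psme1 and Psme2) is induced as well. Peptides made in this way are carried into the endoplasmic reticulum by Tap1 and Tap2 and loaded on MHC class I. In myeloid antigen-presenting cells the immunoproteasome is commonly present without added interferon.

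Promoter sequences are shown for a chosen few members. They set a constitutive catalytic gene beside its immunoproteasome counterpart and show the stretch that Psmb9 shares with the transporter gene Tap1. They were taken from RefSeq (GRCm38.p6), in which 42 of the 50 members had a promoter window. Psmb9 and Tap1 are transcribed away from each other on chromosome 17, and the spacer of 225 bases between their start sites (chr17:34187331-34187555) is given on the + strand, the strand of Tap1. The windows of Psmb8 (chr17:34197945-34198194, + strand), Psmb5 (chr14:54617996-54618245, - strand) and Psme1 (chr14:55578244-55578493, + strand) are the 250 bases before the start site, on the strand of the gene. Capitals mark matches to any of 4 motifs searched on both strands, which were the antioxidant response element core TGACNNNGC, CCAAT, the interferon-stimulated response element core GAAANNGAA and the gamma-activated site TTCNNNGAA.
Psmb9-Tap1 spacer: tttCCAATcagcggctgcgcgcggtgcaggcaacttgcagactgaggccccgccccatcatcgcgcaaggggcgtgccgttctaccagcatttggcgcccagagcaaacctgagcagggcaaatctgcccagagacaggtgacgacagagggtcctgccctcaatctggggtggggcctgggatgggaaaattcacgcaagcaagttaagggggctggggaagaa
Psmb8: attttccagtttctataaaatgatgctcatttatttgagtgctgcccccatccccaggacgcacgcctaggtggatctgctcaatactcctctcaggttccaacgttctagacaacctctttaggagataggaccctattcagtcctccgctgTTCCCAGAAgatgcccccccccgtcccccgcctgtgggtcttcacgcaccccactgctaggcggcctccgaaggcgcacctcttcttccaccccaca
Psmb5: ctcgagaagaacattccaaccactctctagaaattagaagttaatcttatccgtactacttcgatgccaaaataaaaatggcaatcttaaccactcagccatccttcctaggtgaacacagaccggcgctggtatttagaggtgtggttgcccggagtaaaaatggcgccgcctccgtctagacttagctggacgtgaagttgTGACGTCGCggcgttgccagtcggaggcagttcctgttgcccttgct
Psme1: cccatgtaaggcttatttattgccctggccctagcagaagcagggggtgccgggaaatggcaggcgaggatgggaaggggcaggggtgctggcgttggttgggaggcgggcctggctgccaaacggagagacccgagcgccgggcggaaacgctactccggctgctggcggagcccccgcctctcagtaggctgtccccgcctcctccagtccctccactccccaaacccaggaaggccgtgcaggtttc
The spacer held CCAAT next to the Psmb9 start site, from 222 to 218 bases before that of Tap1. Psmb8 held a gamma-activated site 97 to 89 bases before its start site, and Psmb5 an antioxidant response element core 47 to 39 bases before it. Psme1 had no match in this window. The windows of Psmd10 and Psmg4, which passed in the comparison below, are not shown. Psmd10 held 3 matches to CCAAT and Psmg4 had no match.

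Motif letters were about as common before members as before genes in general. The antioxidant response element core, bound by NRF1 (Nfe2l1) and NRF2 (Nfe2l2), stood before 5 of 42 members (11.9%) and 10.15% of 27025 RefSeq promoters. CCAAT stood before 15 members (35.71%) and 34.46% of promoters. GAAANNGAA stood before 3 members (Psmb3, Psmd4 and Psmd9; 7.143% against 7.156%) and TTCNNNGAA before Psmb8 and Psmg1 (4.762% against 7.179%). These shares describe letters in a short window and not binding.

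Most proteasome genes did not pass as different between the cells grown with GM-CSF and with M-CSF, as was so for most genes tested. With 2 arrays per group, not passing does not show equal levels. Of 50 members, 3 were higher in M1 cells, 1 was lower and 46 did not pass (limma, Benjamini-Hochberg adjusted p under 0.05). The share called was 10.7% over all genes tested, 6.18% higher and 4.53% lower, so the members' 3 higher and 1 lower lay near the background. No member differed by 2-fold or more, against 4.83% of all genes. The 95% interval of the difference, from the same fit, lay within 2-fold in both directions for 50 of 50 members and for 89.7% of all genes tested. The median difference (M1 minus M2, log2) was -0.04 over members and -0.01 over all genes tested. A positive difference was seen for 21 members (42%) and a negative one for 29, where 47.6% of all genes tested had a positive one.

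The differences of members were about as large as those of all genes at the median and smaller at the 75th percentile. The median absolute log2 difference was 0.14 over members and 0.15 over all genes tested. At the 75th percentile it was 0.23 over members and 0.32 over all genes. The largest was 0.60 for members and 6.09 for all genes, but a longer list reaches further, so these maxima are not comparable. Both M1 arrays lay above both M2 arrays for 11 members and below them for 18, and the groups overlapped for the remaining 21. Over all genes tested, 55.4% did not overlap, 26.3% above and 29.2% below. These are descriptions of the list, with no test of its difference from other genes.

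**Figure D1:**
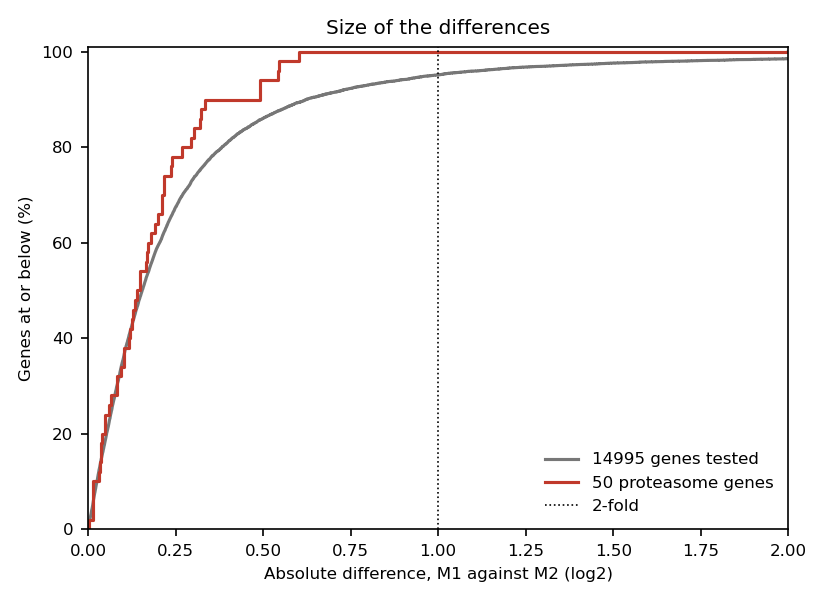
Share of genes (%) with an absolute log2 difference between M1 and M2 at or below the value on the horizontal axis, for the 50 proteasome genes (red) and all 14995 genes tested (grey). The red line reaches 100% at 0.60, left of the dotted line at 2-fold, while 4.83% of all genes lie at or past that line.

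Arrays and cells are described here before the results by subunit class. Over all genes tested, the log2 difference within the GM-CSF pair had an SD of 0.32 and that within the M-CSF pair 0.18. GM-CSF replicate 1 stood apart by Xist, which silences an X chromosome, at 11.58 against 4.53 to 4.93 in the other arrays, and by the Y-linked Eif2s3y, at 3.66 against 9.10 to 9.32. This is a female pattern in GM-CSF replicate 1 and a male pattern in the other arrays. The GM-CSF arrays thus came from different mice, and sex was not balanced between the groups. The part of sex in the results was not tested. Macrophage markers were present in every array: the macrophage list had 0 of 8 members called, its summed level ran from 15.02 to 15.13 in M1 and from 15.01 to 15.04 in M2 (log2), and Csf1r, Itgam and Adgre1 differed by 0.16, -0.07 and -0.30 without passing. H2-Ab1, part of the M1 gate, read 10.08 and 11.27 in M1 and 5.81 and 6.35 in M2. Of 7 dendritic cell markers, 3 were higher in M1 (Itgax by 4.53, Clec9a by 2.44 and Ccr7 by 1.16), the summed level ran from 10.62 to 11.15 in M1 and from 8.49 to 8.56 in M2, and Flt3, Xcr1 and Siglech stayed below the level of olfactory receptor genes (95th percentile 5.90), taken as background, in all arrays. Of the neutrophil markers 1 of 8 tested was lower (Mpo, -0.64) and 0 were higher, although 5 had a positive difference (Ly6g by 1.02; limma, adjusted p = 0.082), with sums of 9.34 to 10.46 in M1 and 9.58 to 9.78 in M2, and Retnlg and Cxcr2 at background. Of the fibroblast markers 1 of 6 was higher (Dcn, 1.07), with sums of 9.21 to 9.32 and 9.08 to 9.17, and Lum and Pdgfra at background. Of the B cell markers 1 of 2 was lower (Cd79b, -2.36), with sums of 8.28 to 8.49 and 10.31 to 10.35, and Cd79a and Ms4a1 at background. The T cell and mast cell lists had 0 calls among 1 tested gene each, with sums of 6.84 to 6.86 and 7.19 to 7.64 in M1 and 6.68 to 6.84 and 7.23 to 7.28 in M2, and Cd3d, Cd3g, Mcpt8, Ms4a2 and Fcer1a at background. The part of these cell types in the proteasome results was not tested.

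**Figure D2:**
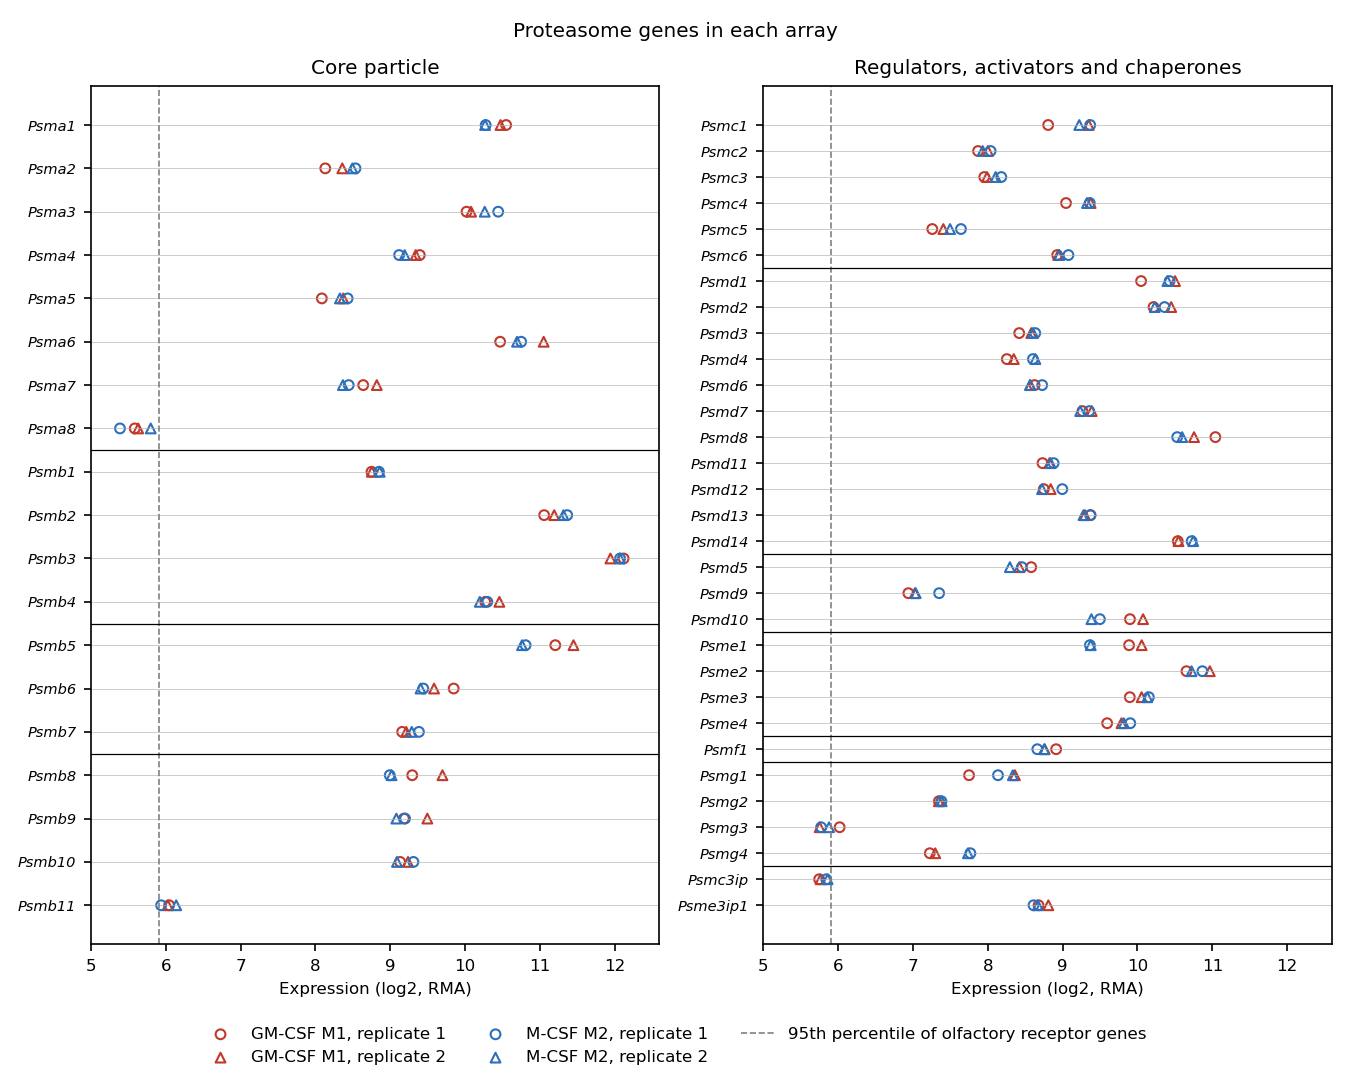
Deposited expression value (log2, RMA) of every proteasome gene in each array, with M1 in red and M2 in blue, circles for replicate 1 and triangles for replicate 2; horizontal lines part the subunit classes and the dashed line is the background of 5.90. Colours separate most widely for Psme1, Psmd10, Psmb5 and Psmg4, while Psma8, Psmb11, Psmg3 and Psmc3ip lie near the dashed line.

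The alpha ring had no called member among its 8 genes. Psma7 had the largest difference of the ring, with 8.64 and 8.82 in M1 and 8.45 and 8.37 in M2 (log2). Both M1 arrays lay above both M2 arrays, but the difference of 0.32 ± 0.12 (SE, n = 2 per group) did not pass (limma, adjusted p = 0.146). Psma1 and Psma4 also had both M1 arrays above, with differences of 0.24 and 0.21. Psma3 lay the other way, with 10.02 and 10.08 in M1 and 10.44 and 10.26 in M2, a difference of -0.30 ± 0.12 that did not pass (adjusted p = 0.165 with limma). All 3 probe sets of Psma3 had this sign, from -0.27 to -0.33. Psma2 differed by -0.27, Psma5 by -0.15 and Psma6 by 0.04, none past the threshold. Psma6 read 10.47 and 11.05 in the M1 arrays, on either side of 10.75 and 10.70 in M2. Psma8, the alternative alpha subunit of the testis, lay below the background in every array (5.39 to 5.80).

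The structural beta subunits gave no call either. Psmb1 was nearly identical within each group, at 8.75 and 8.76 in M1 and 8.85 and 8.86 in M2, a difference of -0.10 ± 0.10 (SE). Psmb2 differed by -0.22, Psmb3 by -0.04 and Psmb4 by 0.12, and the groups overlapped for Psmb3 and Psmb4. The alternative probe set of Psmb3 gave 0.01.

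Of the constitutive catalytic subunits, Psmb5 was higher in M1 cells. Psmb5, which carries the chymotrypsin-like site, read 11.21 and 11.45 in M1 and 10.81 and 10.76 in M2. The groups did not overlap, and the difference was 0.54 ± 0.12 (SE, n = 2 per group), or 1.46-fold (limma, adjusted p = 0.0436). Psmb6, with the caspase-like site, read 9.85 and 9.59 against 9.44 and 9.41, and its difference of 0.29 ± 0.13 did not pass (limma, adjusted p = 0.216). Psmb7, with the trypsin-like site, lay on the other side of 0, at -0.15 ± 0.11, with 9.16 and 9.22 in M1 and 9.39 and 9.29 in M2. The catalytic genes thus had differences of unlike sign.

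None of the immunoproteasome catalytic genes passed. Psmb8, which takes the place of Psmb5, read 9.30 and 9.70 in M1 and 8.99 and 9.02 in M2. Both M1 arrays lay above both M2 arrays, but they stood 0.40 apart, and the difference of 0.49 ± 0.15 (SE; 95% interval 0.12 to 0.86) did not pass (limma, adjusted p = 0.106). Psmb9, which takes the place of Psmb6, read 9.18 and 9.50 in M1 and 9.20 and 9.08 in M2. The groups overlapped, and the difference was 0.20 ± 0.14, with an interval from -0.14 to 0.54 (limma, adjusted p = 0.447). Psmb10, which takes the place of Psmb7, read 9.13 and 9.24 against 9.31 and 9.09, a difference of -0.01 ± 0.12 with an interval from -0.31 to 0.28. These intervals leave out a 2-fold rise or fall of any of the 3 genes. Psmb11, the catalytic subunit of the thymus, stayed near the background, between 5.94 and 6.14.

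The balance of immunoproteasome to constitutive genes was compared within each array, since a change of unequal size in the partners would show there. The log2 value of Psmb8 minus that of Psmb5 was -1.91 and -1.75 in M1 and -1.82 and -1.74 in M2, a shift of -0.05 between the group means. Psmb9 minus Psmb6 was -0.66 and -0.09 in M1 and -0.24 and -0.32 in M2, a shift of -0.09. Psmb10 minus Psmb7 was -0.03 and 0.02 in M1 and -0.07 and -0.20 in M2, a shift of 0.13. Groups overlapped for the first 2 pairs and not for the third. The exact permutation test (two-sided) gave p = 0.667, 1 and 0.333, or 1, 1 and 0.999 adjusted over the 3 pairs, and 2 arrays against 2 cannot give less than 0.333. The first 2 shifts changed sign without GM-CSF replicate 1, to 0.03 and 0.19.

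Of the genes of the PA28 activator, Psme1 passed and Psme2 did not. Psme1, the alpha chain of the ring that opens the core particle for peptides, read 9.89 and 10.06 in M1 and 9.36 and 9.37 in M2. It had the largest difference of all members, 0.60 ± 0.11 (SE, n = 2 per group; 95% interval 0.33 to 0.88), or 1.52-fold, and was higher in M1 (limma, adjusted p = 0.0233). Psme2, the beta chain of the same ring, read 10.65 and 10.97 in M1 and 10.87 and 10.72 in M2. These arrays interleaved, with a difference of 0.02 ± 0.14 and an interval from -0.33 to 0.36, and the Psme2 probes may not part it from Psme2b. The difference between the Psme1 and Psme2 contrasts was not tested. Psme3, which forms the nuclear activator PA28 gamma, and Psme4 (PA200) had M1 arrays below M2 arrays, at -0.17 each, without passing. Psmf1, encoding the proteasome-binding protein PI31, differed by 0.13 without passing.

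The regulatory particle had no called subunit among 17. All 6 ATPase genes had a negative difference, from -0.05 for Psmc2 to -0.24 for Psmc5, and none passed. Over all genes tested, 7861 of 14995 differences were negative. Psmc5 read 7.26 and 7.40 in M1 and 7.64 and 7.49 in M2, with a difference of -0.24 ± 0.12 (SE; limma, adjusted p = 0.279). Without GM-CSF replicate 1 the differences of Psmc1, Psmc2 and Psmc4 turned positive, to 0.05, 0.02 and 0.03. Both probe sets of Psmc1 gave about the same value, -0.21 and -0.22. Among the 11 non-ATPase subunits 4 differences were positive and 7 negative. Psmd4, a receptor for ubiquitin chains, read 8.25 and 8.35 in M1 and 8.60 and 8.63 in M2, a difference of -0.32 ± 0.11 (limma, adjusted p = 0.12). Psmd8 had 11.04 and 10.76 in M1 and 10.53 and 10.60 in M2, a difference of 0.33 ± 0.13 (limma, adjusted p = 0.178). Psmd14, the deubiquitinase that removes chains from the substrate, had 10.54 and 10.55 against 10.72 and 10.74. Its arrays were close within each group, and its difference of -0.19 ± 0.10 did not pass either (limma, adjusted p = 0.313). Psmd1 and Psmd2, the large scaffold subunits, differed by -0.14 and 0.04.

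Among the assembly chaperones 1 gene was higher and 1 lower. Psmd10 (gankyrin), which binds an ATPase during assembly of the regulatory particle, read 9.90 and 10.07 in M1 and 9.50 and 9.38 in M2. It was 1.46-fold higher in M1, with a difference of 0.55 ± 0.12 (SE, n = 2 per group; limma, adjusted p = 0.0369). Psmd10 lies on the X chromosome, and leaving out GM-CSF replicate 1, the array that stood apart by Xist, gave 0.63. The other chaperones of that particle, Psmd5 and Psmd9, differed by 0.13 and -0.21 without passing. Psmg4, part of a chaperone pair that helps to build the alpha ring, was the 1 member lower in M1. It read 7.22 and 7.30 in M1 and 7.77 and 7.73 in M2, a difference of -0.49 ± 0.10 or 1.40-fold (limma, adjusted p = 0.0351). Its partner Psmg3 lay near the background (5.75 to 6.02) with a difference of 0.06. Psmg1 and Psmg2, which act as another pair on the same ring, differed by -0.18 and -0.04. Psmg1 read 7.75 and 8.36 in the M1 arrays, the widest gap within the M1 pair among members.

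**Figure D3:**
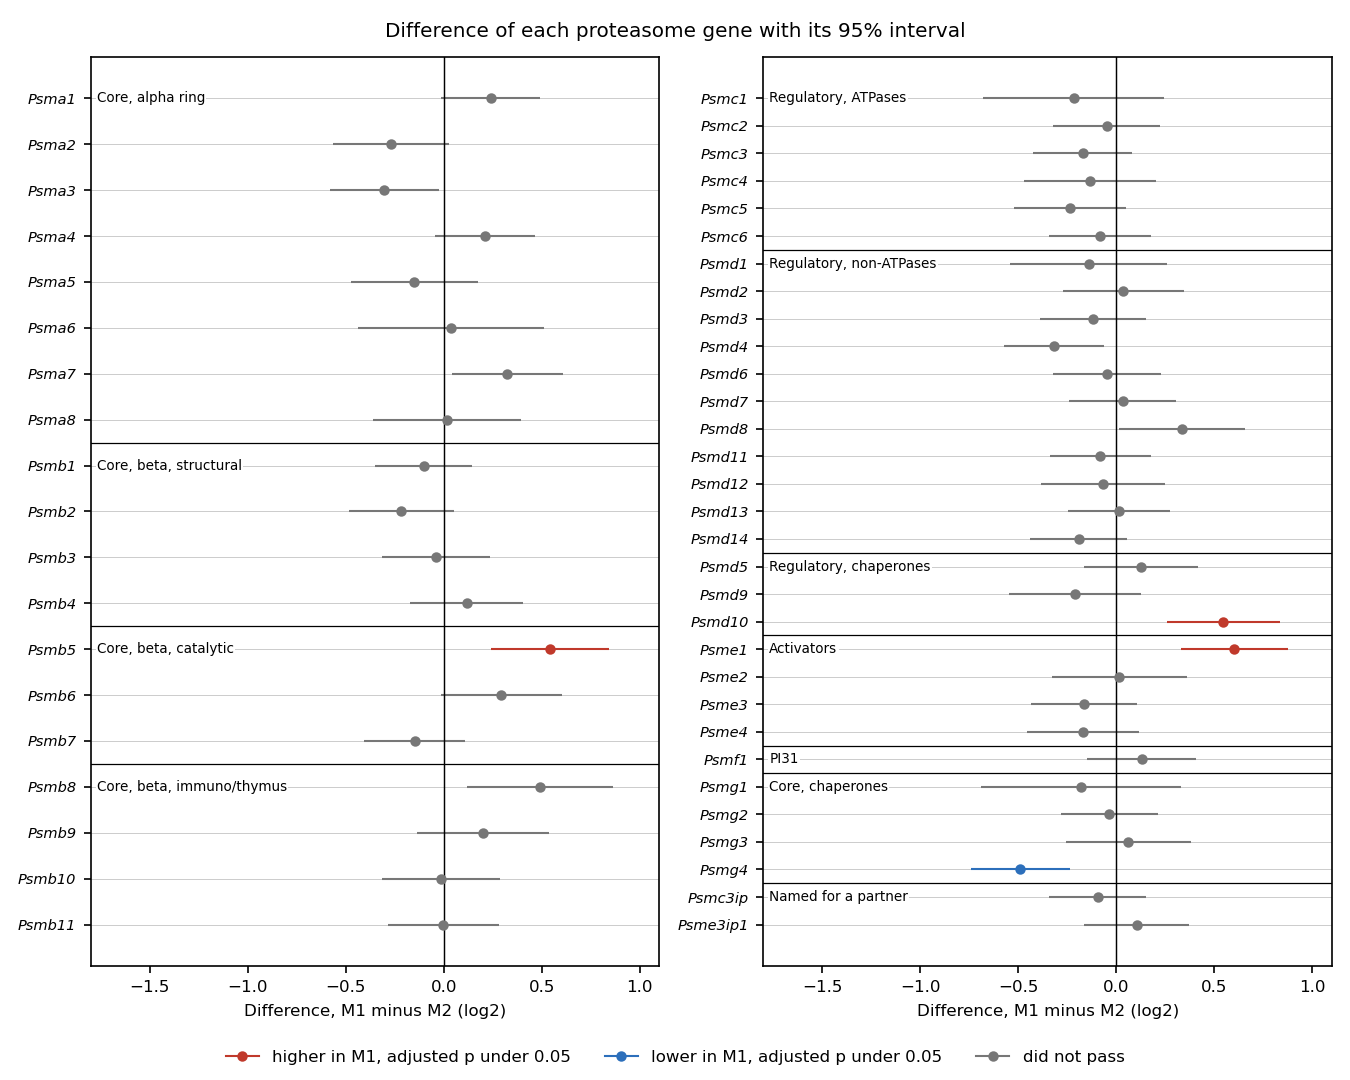
Difference of each proteasome gene between M1 and M2 (log2, M1 minus M2) with its 95% interval from limma, grouped by subunit class. Psmb5, Psmd10 and Psme1 (red) were higher and Psmg4 (blue) was lower, and every interval stays within -1 and 1, the bounds of a 2-fold difference.

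The 4 calls lay close to the threshold and depended on the arrays kept. Without M-CSF replicate 1 the limma adjusted p was 0.215 for Psme1, 0.214 for Psmd10, 0.271 for Psmb5 and 0.27 for Psmg4, and without M-CSF replicate 2 it was 0.207, 0.277, 0.288 and 0.238, so that 0 members passed in either fit. Over all genes tested, 1.31% were higher and 0.433% lower without M-CSF replicate 1, and 1.12% and 0.433% without M-CSF replicate 2. The direction of all 4 was kept with each array left out, from 0.52 to 0.69 for Psme1, 0.46 to 0.63 for Psmd10, 0.42 to 0.66 for Psmb5 and -0.45 to -0.53 for Psmg4. Without GM-CSF replicate 1, Psmb8 passed at 0.69 (limma, adjusted p = 0.00164) and Psma7 at 0.41 (adjusted p = 0.047 with limma), and 5 members were higher and 1 lower, where 9.79% of all genes were higher and 7.86% lower. Without GM-CSF replicate 2, Psmb8 stood at 0.29 and did not pass (limma, adjusted p = 0.157). Psmb6 and Psmd8 then passed as higher and Psmc1 and Psmg1 as lower, beside the 4 genes above, against 11.2% and 10.2% of all genes. On all 4 arrays, Psmb5 lost its call with quantile normalization (limma, adjusted p = 0.0564), and Psmb5, Psmd10 and Psmg4 lost theirs with no filter on dim genes (0.0613, 0.0519 and 0.0517), while Psme1 passed under both. Over all members, 33 kept the sign of their difference with each array left out and 17 did not. The share over all genes tested was not counted, so this is not read as particular to members.

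**Figure D4:**
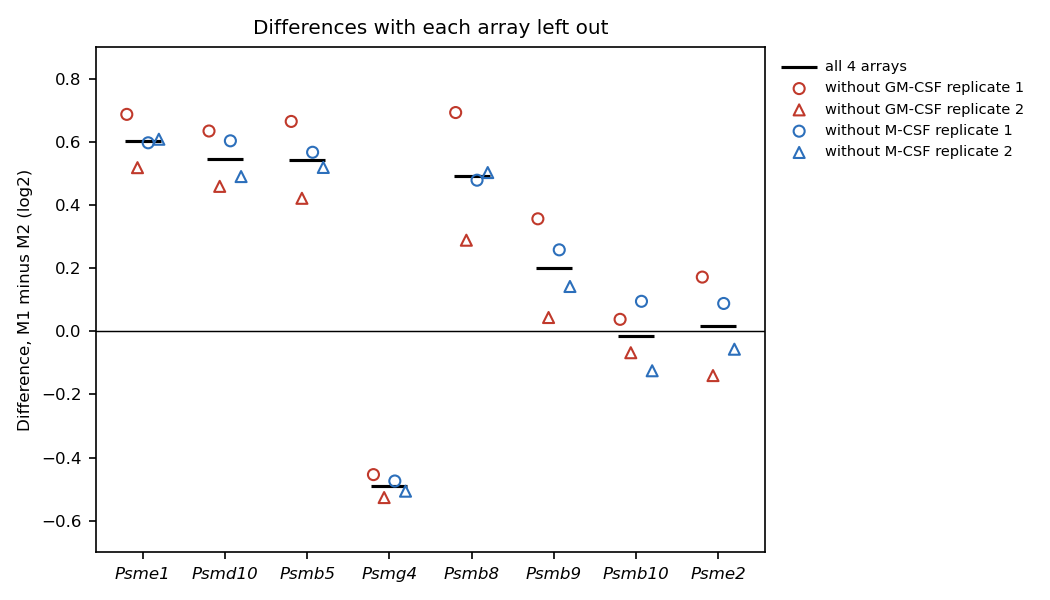
Difference between M1 and M2 (log2) over all 4 arrays (black bar) and with each array left out (symbols), for the 4 called genes and the immunoproteasome and PA28 genes. Psme1, Psmd10, Psmb5, Psmg4 and Psmb8 stay on one side of 0, Psmb9 reaches down to 0.04, and Psmb10 and Psme2 lie on both sides.

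Members differed within the M1 pair as well. GM-CSF replicate 2 was above replicate 1 for 39 of 50 members, where 56.0% of all genes tested were. The 5 genes of the immunoproteasome and PA28 (Psmb8, Psmb9, Psmb10, Psme1 and Psme2) all read higher in replicate 2, by 0.40, 0.31, 0.11, 0.17 and 0.31. Tap1 and Tap2 did too, by 0.45 and 0.29. All 6 ATPase genes also read higher in replicate 2, by 0.01 to 0.54. Marker levels differed within the M1 pair too. In replicates 1 and 2 the summed level was 10.46 and 9.34 for neutrophil markers and 11.15 and 10.62 for dendritic cell markers. For macrophage markers it was 15.02 and 15.13, and H2-Ab1 read 10.08 and 11.27. The part of these cell types in the gaps of members was not tested. The median absolute gap within the pair was 0.15 for M1 and 0.08 for M2 over members, and 0.14 and 0.11 over all genes tested. The absolute difference between groups had a median of 0.14 over members and 0.15 over all genes tested. It is taken between means of 2 arrays, so it is not a like measure to a gap between single arrays.

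Of the genes that load peptides on class I, Tapbp and Tapbpl were higher in M1 cells. This list had 14 members tested of 18 listed, with 2 higher and 0 lower against 6.18% and 4.53% of all genes tested, and a median difference of 0.22 against -0.01. Tapbp (tapasin), which holds class I molecules at the transporter, read 10.93 and 11.21 in M1 and 10.46 and 10.50 in M2. It was higher by 0.59 ± 0.13 (SE, n = 2 per group; limma, adjusted p = 0.0383). Its relative Tapbpl, a peptide editor, was higher by 0.51 ± 0.11 (limma, adjusted p = 0.0412). Tap1 read 9.75 and 10.20 against 9.41 and 9.41 and did not pass, at 0.56 ± 0.16 (limma, adjusted p = 0.0867). Psmb9, which shares its upstream stretch with Tap1, had 0.20, and whether these differ was not tested. Tap2 had 8.40 and 8.69 against 8.07 and 7.98, at 0.52 ± 0.13 (limma, adjusted p = 0.0612). The size for both Tap genes depended on the GM-CSF array kept. Without GM-CSF replicate 1 Tap1 stood at 0.79 and Tap2 at 0.67, and without replicate 2 at 0.34 and 0.38. B2m, the light chain of class I, differed by 0.02 ± 0.11, and H2-K1 and H2-D1 were not analysed here. The trimming peptidases pointed both ways, with 0.40 for Npepps and -0.33 for Tpp2, neither past the threshold. Tapbp and Tapbpl lost their calls without M-CSF replicate 1 (limma, adjusted p = 0.287 and 0.236) and replicate 2 (0.251 and 0.288), with differences from 0.45 to 0.73 and from 0.43 to 0.59 over the arrays left out. Both also lost them with quantile normalization (limma, adjusted p = 0.0513 and 0.0505) and with no filter on dim genes (0.0528 and 0.059), and Tapbpl with arrays centred on their medians (0.0502).

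Of the interferon-gamma axis, Jak2 alone passed among 10 tested genes of 11 listed. Jak2, a kinase of the interferon-gamma and GM-CSF receptors, read 10.25 and 10.52 in M1 and 8.59 and 8.39 in M2. It was 3.72-fold higher (log2 difference 1.90 ± 0.14 SE, adjusted p = 0.000856 with limma), and passed in each fit that left out an array. The transcription factors that drive immunoproteasome genes did not pass. Irf1 differed by 0.30 ± 0.11 (limma, adjusted p = 0.149) and Nlrc5, the class I transactivator, by 0.18 ± 0.13 (adjusted p = 0.444 with limma). Both sizes depended on using the brightest probe set. Averaging the probe sets instead gave 0.07 for Irf1 and 0.31 for Nlrc5. Neither passed then (limma, adjusted p = 0.738 and 0.242). Irf2 differed by 0.41 (limma, adjusted p = 0.0561), Stat2 by 0.30 and Ifngr2 by 0.25. The median of the list was 0.22, against -0.01 over all genes tested.

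**Figure D5:**
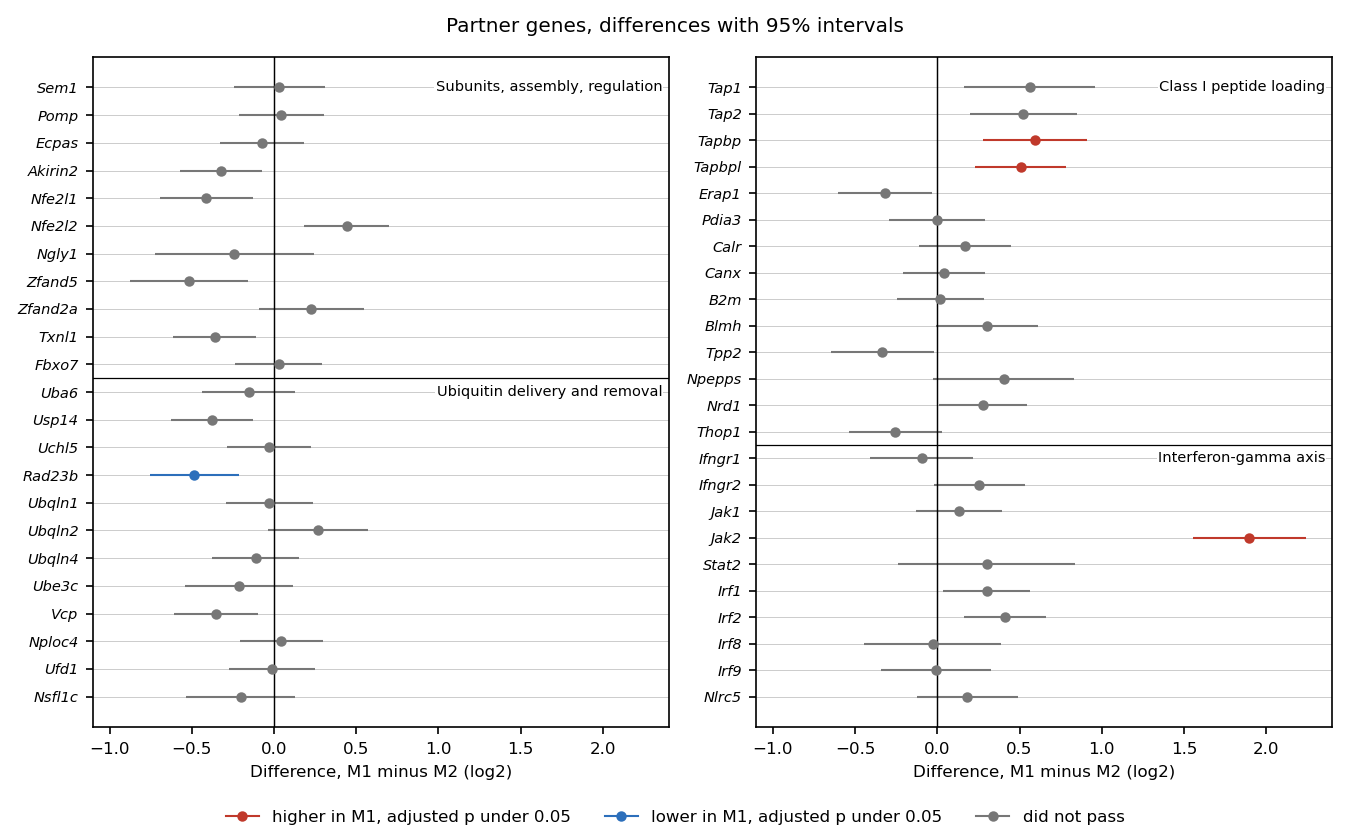
Difference between M1 and M2 (log2, M1 minus M2) with its 95% interval from limma for the 47 tested partner genes in 4 lists. Tapbp, Tapbpl and Jak2 (red) were higher and Rad23b (blue) was lower, and Jak2 is the single gene past 1.

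Regulators and ubiquitin handling genes gave 1 call among 23, where 10.7% of all genes tested were called. The list of further subunits, assembly factors and regulators had 11 tested of 15 listed, with 0 calls and a median of -0.07. Nfe2l1, the transcription factor that raises proteasome genes when the proteasome is inhibited, read 9.65 and 9.84 in M1 and 10.15 and 10.16 in M2, at -0.41 ± 0.12 (SE; limma, adjusted p = 0.0792). Nfe2l2, its relative in the antioxidant response, lay on the other side, at 0.44 ± 0.11 (limma, adjusted p = 0.0519). The groups did not overlap for either gene, and neither passed. Zfand5, a proteasome-binding activator, differed by -0.52 and Txnl1, a thioredoxin of the regulatory particle, by -0.36, without passing. The assembly factor Pomp and the small subunit Sem1 differed by 0.05 and 0.03. Of the 12 tested ubiquitin genes of 20 listed, 1 was lower, 0 were higher and 10 had a negative difference. Over all genes tested, 7861 of 14995 differences were negative. The median was -0.13 for the ubiquitin genes and -0.01 over all genes tested. The gene that was lower, Rad23b, brings ubiquitinated proteins to the proteasome and read 9.73 and 9.87 in M1 and 10.32 and 10.25 in M2 (-0.48 ± 0.11; limma, adjusted p = 0.044). It lost its call without M-CSF replicate 1 and replicate 2 (limma, adjusted p = 0.309 and 0.246) and with arrays centred on their medians or no filter on dim genes (0.056 and 0.0637). Usp14, a deubiquitinase of the regulatory particle, and Vcp, the segregase that extracts substrates, differed by -0.37 and -0.35 without passing. Over all 47 partner genes 3 were higher and 1 lower, near the shares of 6.18% and 4.53% over all genes tested.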

How the data were processed

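RNA of 4 samples (300 ng each) was amplified, biotin-labelled and read on Affymetrix arrays of 1 colour, as the labels' protocols say. The authors deposited 1 log2 expression value for each probe set and array. Per the submitters' processing notes, these came from RMA (Affymetrix Expression Console 1.1). RMA subtracts background, brings arrays to one distribution and summarises probes, so it compresses small differences of dim genes and hides a change in total RNA. No build, batch or detection call was given in the sources used here. The number of arrays limits the precision.

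Of 35556 probe sets, 21789 had 1 symbol, 1621 several and 12146 none listed, and 21698 matched RefSeq (GRCm38.p6) by gene ID, with 0 symbols changed. Probe sets with several symbols were not used. Genes entered when at least 2 arrays exceeded that array's 30th percentile. limma 3.58.1 (R 4.3.3; lmFit and eBayes, two-sided) was fitted over all 14995 genes with 2 residual and 4.165 prior degrees of freedom, without a replicate block, and with Benjamini-Hochberg adjustment at 0.05. Intervals use the same fit. The code was tested on simulated data. Members could all be named. Partner lists allowed their called genes, 4 others by size and some fixed names, and marker lists the gate genes, Csf1r and genes 2-fold apart. Other genes in the text (Mpo, Xist, Eif2s3y and markers at background) were named after their values were seen. Members and lists were chosen with earlier results of these data known. Python 3.11.15, pandas 2.3.3 and matplotlib 3.10.9 made tables and plots.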

Additional observations from a re-analysis of the deposited data

How the results depend on the processing

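Counts of calls moved with the settings, while fits on all 4 arrays kept the direction of every member except Psmb11, which moved from -0.0021 to 0.00594 with quantile normalization. With the 4 array fit 3 members were higher and 1 lower. With no filter on dim genes 1 was higher and 0 lower, with an adjusted p under 0.01 both counts were 0, and with quantile normalization 2 were higher and 1 lower. Of the partner genes, 3 higher and 1 lower became 1 and 0 with no filter and at 0.01. They became 5 and 1 with the stricter filter, 1 and 1 with quantile normalization, 6 and 1 with trended and robust variances, and 2 and 0 with arrays centred on their medians. The replicate block gave 1 member higher and 0 lower, and 2 partner genes higher and 0 lower, ending the calls of Psmb5, Psmd10, Psmg4, Tapbpl and Rad23b. Samples with the same number share only that number in the labels, and the deviations of same-numbered samples correlated at 0.06 across genes, so the block was not read as pairing. With each array left out in turn, the members higher ran from 0 to 5 and those lower from 0 to 3, the partner genes higher from 1 to 8 and those lower from 0 to 4 (the lone array of a group was assumed to vary like the other group). When a GM-CSF array was left out, the spread came from the M-CSF pair, whose arrays lay closer together. The shift of Psmb8 minus Psmb5 ran from -0.13 to 0.028 and that of Psmb9 minus Psmb6 from -0.38 to 0.19, with no test. Of the members and the partner genes named here, those whose difference changed sign when an array was left out did not pass in the fit of 4 arrays, and 8 partner genes not named changed sign too. Ranges of the named genes were B2m from -0.041 to 0.079, Pomp from -0.00811 to 0.098, Psma6 from -0.25 to 0.33, Psma8 from -0.19 to 0.22, Psmb10 from -0.12 to 0.095, Psmb11 from -0.10 to 0.099, Psmb3 from -0.13 to 0.048, Psmc1 from -0.49 to 0.053, Psmc2 from -0.11 to 0.018. The next were Psmc4 from -0.30 to 0.030, Psmd1 from -0.37 to 0.087, Psmd12 from -0.20 to 0.070, Psmd13 from -0.032 to 0.058, Psmd2 from -0.082 to 0.15, Psmd6 from -0.13 to 0.034, Psmd7 from -0.030 to 0.094, Psme2 from -0.14 to 0.17, Psmg1 from -0.49 to 0.13. The last were Psmg3 from -0.072 to 0.19, Sem1 from -0.051 to 0.12, Stat2 from -0.043 to 0.64. The cause of these changes was not tested. Signal over background limits Psma8, Psmb11, Psmg3 and Psmc3ip, which lay near the level of olfactory receptor genes.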
